A study of Homo sapiens with 8 samples.

Results

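The SOX genes described here are SOX2, SOX4, SOX5, SOX6, SOX8, SOX9, SOX11, SOX12, SOX13 and SOX15. They were picked by symbol from the count table, as 10 of its 26475 genes and 10 of the 19 numbered SOX genes that have a row in it. RNA was sequenced from BT474, a luminal breast carcinoma line that carries an ERBB2 amplification, in 4 libraries labelled NPY1R high and 4 labelled NPY1R low. NPY1R is the gene of the neuropeptide Y receptor Y1. All 8 libraries come from this single line, and the labels give neither a drug treatment nor the means by which the high and low cells were separated. The series title names cells that tolerate lapatinib, an inhibitor of the EGFR and ERBB2 kinases, and the comparison asks how the transcripts of the 2 groups of cells differ. The members were chosen with the difference between these groups already known. That difference is therefore given for them as a description, with the call each gene received in the fit across all genes and with no test of its own.

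SOX proteins are transcription factors that share an HMG box, a domain that binds the minor groove of DNA at short motifs of the ACAAAG or ACAATG kind and bends it. They fall into subgroups by the likeness of that box. SOX2 is a SoxB1 protein that maintains pluripotent and neural progenitor cells. SOX4, SOX11 and SOX12 are SoxC activators of progenitor and early neuronal genes, SOX5, SOX6 and SOX13 are SoxD proteins without an activation domain of their own, SOX8 and SOX9 are SoxE factors, and SOX15 is the SoxG member. In cartilage SOX5 and SOX6 act beside SOX9, and in the mammary gland SOX9 is known for luminal progenitor cells.

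Libraries held 18025648 to 30609791 counts, and 17023 to 17408 genes had a count in a library. Levels are TMM-scaled CPM (a library's counts for a gene relative to its scaled total), where not said otherwise. NPY1R itself averaged 856.5 ± 170.4 CPM in libraries labelled high and 95.5 ± 5.65 CPM in those labelled low (SD, n = 4 each), so its level followed the labels. All 8 luminal epithelial markers passed the filter on low counts, with summed levels of 4120 to 4754 CPM in NPY1R high and 4181 to 5022 CPM in NPY1R low. At an adjusted p under 0.05 in edgeR's fit across all genes, GATA3 was higher and EPCAM and ELF3 were lower. That is 37.5% of these 8 markers, beside 13.6% of all genes tested. Under 1 CPM in every library were 5 of 6 fibroblast, 4 of 5 endothelial and 4 of 6 basal markers. So were 4 of 6 neuronal and 5 of 6 glial markers. KRT14, COL1A2, DCN, PDGFRB, TIE1 and S100B were at 0. Of the rest, ERBB3 (glial) averaged 256.9 and 263.1 CPM in NPY1R high and low, and COL1A1 (fibroblast) 14.1 and 15.5 CPM. VWF (endothelial) averaged 11.7 and 16.1 CPM, TP63 (basal) 6.36 and 6.28 CPM and MYLK (basal) 1.63 and 1.95 CPM. MAP2 (neuronal) averaged 4.64 and 2.48 CPM and SYP (neuronal) 0.645 and 0.961 CPM, and none of these genes was called. Summed levels of the endothelial markers were 9.22 to 15.6 CPM in NPY1R high and 13.5 to 18.2 CPM in NPY1R low, those of the neuronal markers 3.37 to 6.95 and 2.79 to 4.45 CPM, and their part in the SOX results was not tested.

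SOX2 and SOX6, the members with the widest differences between the groups, lie in different genomic settings. SOX2 occupies chr3:181711925-181714436 in the RefSeq annotation of GRCh38.p14, inside the long non-coding RNA gene SOX2-OT (chr3:181056680-181742228). SOX6 occupies chr11:15966449-16738477 on the minus strand and has 5 annotated starts with a promoter window in RefSeq. Its outermost start lies 0.17 kb from the protein-coding gene C11orf58, which is transcribed the other way. The 250 bases before the SOX2 start (chr3:181711675-181711924, plus strand) and before the innermost SOX6 start (chr11:16356547-16356796, minus strand) are shown 5′ to 3′, from RefSeq, because these 2 genes differed most and both stretches hold a SOX motif. Capitals mark ACAAAG or ACAATG on either strand (CTTTGT and CATTGT on the other).
SOX2: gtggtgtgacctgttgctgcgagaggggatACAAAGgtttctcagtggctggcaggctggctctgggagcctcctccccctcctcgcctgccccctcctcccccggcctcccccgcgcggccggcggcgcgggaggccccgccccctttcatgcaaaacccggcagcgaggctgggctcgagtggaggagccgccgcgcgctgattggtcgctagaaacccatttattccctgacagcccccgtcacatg
SOX6 innermost start: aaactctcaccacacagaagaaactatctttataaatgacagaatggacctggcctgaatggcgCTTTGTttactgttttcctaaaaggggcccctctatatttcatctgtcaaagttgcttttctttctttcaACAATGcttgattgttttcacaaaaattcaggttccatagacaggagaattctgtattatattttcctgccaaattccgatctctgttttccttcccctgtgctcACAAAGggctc
The SOX2 stretch holds 1 match, at position -220 counted from the start, and the SOX6 stretch holds 3. The window of the outermost SOX6 start holds 0. RefSeq gives 10 windows of 300 bases for 6 of the members (SOX2, SOX4, SOX5, SOX6, SOX12 and SOX13). Of these, 2 held ACAAAG and 3 held ACAATG, each in 2 members. These letters occur in 16.1% and 10.8% of all 35114 promoter windows. Of the 10 windows, 5 belong to SOX6, all but the outermost at a GC content of 29.7% to 41.7%. The median over all windows was 58.7%, so these shares are not matched for GC content. The palindromic estrogen response element, GGTCA and TGACC parted by 3 bases, was in 0 of the 10 windows and in 0.057% of all windows. These are matches of letters, and the counts do not show which SOX6 start was used.

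Of the 10 members, 8 passed the filter on low counts and 2 did not. In the fit across all genes, edgeR's quasi-likelihood test called 13.6% of the 14008 genes tested at a Benjamini-Hochberg adjusted p under 0.05, with 5.78% of all genes tested higher and 7.81% lower in NPY1R high. In numbers these were 810 higher and 1094 lower, against 949 and 807 when libraries were scaled by their totals and 1009 and 783 with upper-quartile factors. Of the 8 SOX genes tested, SOX4 and SOX6 were called higher, SOX2 and SOX11 were called lower, and SOX9, SOX12, SOX13 and SOX15 were not called. The same 4 called members were those whose libraries did not overlap between the groups, against 20.2% of all genes tested. A change of at least 2-fold with a call was found for SOX2 and SOX6 and for 3.2% of all genes. The median log2 change was -0.05 over the 8 SOX genes and -0.03 over all genes tested. In bulk RNA, fewer cells with a transcript and less of it per cell cannot be told apart, and this holds for every difference given here.

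**Figure D1:**
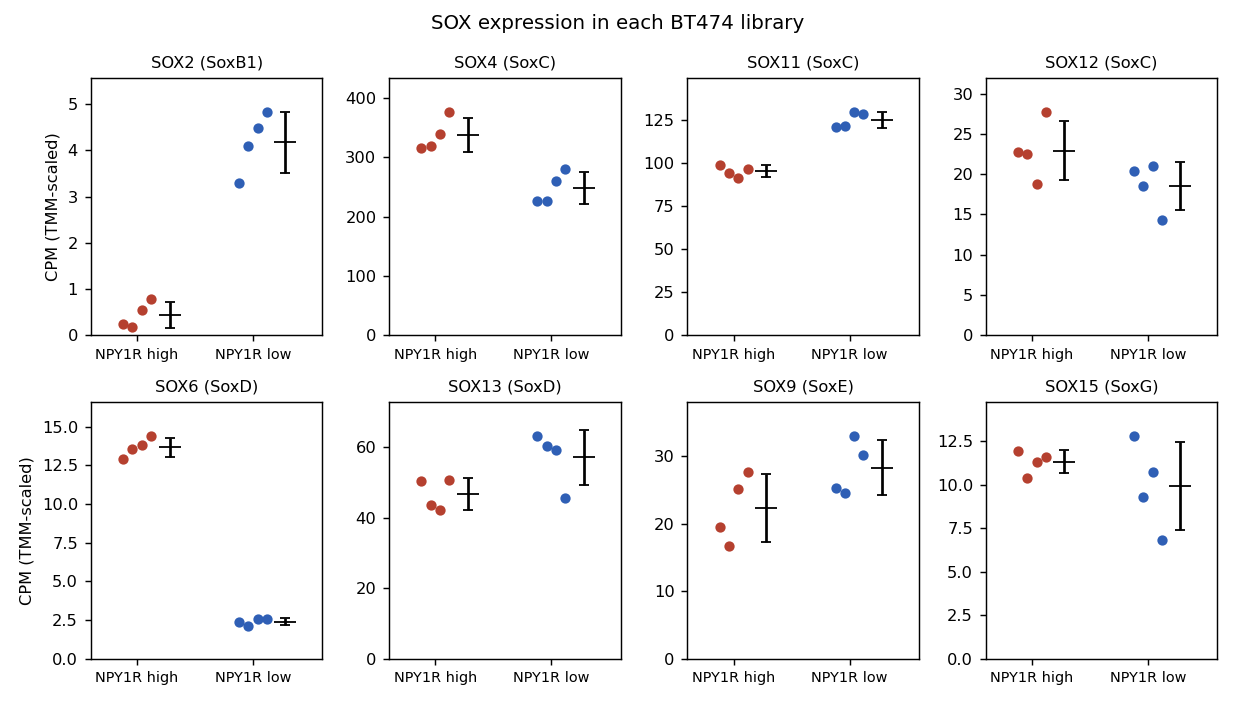
Expression of the 8 SOX genes that passed the filter, in TMM-scaled CPM (vertical axis, from 0 and scaled for each gene), for each of the 4 NPY1R high libraries (red) and the 4 NPY1R low libraries (blue); the black bar is the mean ± SD. The groups are apart for SOX2, SOX4, SOX11 and SOX6 and overlap for SOX12, SOX13, SOX9 and SOX15.

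SOX2 was 10.02-fold lower in NPY1R high. Its counts were 7, 5, 15 and 14 in NPY1R high replicates 1 to 4 and 98, 117, 98 and 123 in NPY1R low replicates 1 to 4. In CPM these were 0.240, 0.186, 0.543 and 0.771 against 3.29, 4.10, 4.48 and 4.83. Every NPY1R low library was above every NPY1R high library, with a gap between 0.771 and 3.29 CPM. The means were 0.435 ± 0.273 and 4.18 ± 0.663 CPM (SD, n = 4 each), and the log2 change was -3.32 (SE 0.34). Within NPY1R high, SOX2 had the widest spread of the 8 tested members, with a coefficient of variation of 62.9%. The 1852 tested genes within a factor of 2 of its mean over all 8 libraries (2.31 CPM) had a median of 18.5%. That mean is above the 0.435 CPM of SOX2 in NPY1R high, so most of these genes had more counts there than SOX2. Replicates 3 and 4 of that group were above replicates 1 and 2, and the log2 ratio of high to low was -4.11 in replicates 1 and 2 and -2.83 in replicates 3 and 4. This split of the replicates is not in the labels, and both values are parts of the difference already known when SOX2 was chosen. SOX2-OT, the RNA gene that contains SOX2, had only 5, 3, 2 and 0 counts in NPY1R high and 1 in each NPY1R low library, which was too few to test. With 14 counts in all, whether SOX2-OT followed SOX2 cannot be told.

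The SoxC genes differed from each other in direction. SOX4, which promotes survival and progenitor programmes in many epithelia, was the most abundant member. It lies on chromosome 6 and had 315.9, 318.8, 338.7 and 376.5 CPM in NPY1R high against 226.0, 226.2, 259.5 and 280.4 CPM in NPY1R low. The lowest NPY1R high library was 315.9 CPM and the highest NPY1R low library 280.4 CPM, so the groups were apart. The means were 337.5 ± 27.9 and 248.0 ± 26.7 CPM (SD, n = 4 each), a 1.36-fold difference (log2 0.44, SE 0.09). SOX11, a neuronal and developmental factor on chromosome 2, went the other way. It had 98.9, 94.3, 91.1 and 96.7 CPM in NPY1R high and 120.7, 121.2, 129.5 and 128.2 CPM in NPY1R low. Its spread was small, with a coefficient of variation of 3.52% and 3.70% in the groups, where tested genes of like level had medians of 6.14% and 6.62%. The means were 95.2 ± 3.35 and 124.9 ± 4.63 CPM (SD, n = 4 each). On the log2 scale the change was -0.39 (SE 0.05), a 1.31-fold lower level in NPY1R high.

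SOX12, the third SoxC gene, on chromosome 20, ranged from 18.8 to 27.8 CPM in NPY1R high and from 14.3 to 21.0 CPM in NPY1R low. The groups overlapped, and the log2 change of 0.30 (SE 0.15) was not called.

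Among the SoxD genes, SOX6 was 5.70-fold higher in NPY1R high. Its counts were 376, 364, 382 and 262 in NPY1R high and 71, 60, 56 and 65 in NPY1R low. In CPM these were 12.9, 13.5, 13.8 and 14.4 against 2.38, 2.10, 2.56 and 2.55. The libraries within a group were close together and the groups far apart. The means were 13.7 ± 0.627 and 2.40 ± 0.215 CPM (SD, n = 4 each), with a log2 change of 2.51 (SE 0.11). Its coefficients of variation were 4.59% and 8.98%. Tested genes within a factor of 2 of its mean over all 8 libraries (8.04 CPM) had medians of 11.9% and 13.8%. That mean is below the 13.7 CPM of SOX6 in NPY1R high and above its 2.40 CPM in NPY1R low. These genes were therefore not matched to its level in either group. The log2 ratio of the groups was 2.56 in replicates 1 and 2 and 2.47 in replicates 3 and 4. Such a split is not in the labels. Both values are parts of the difference already known when SOX6 was chosen, so they are no further support for it.

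SOX5, the closest relative of SOX6, was near absence. It had 4, 0, 1 and 1 counts in NPY1R high and 0 counts in all NPY1R low libraries, where a count of 0 is compatible with up to 3 counts in a library, and it did not pass the filter. SOX13, the third SoxD gene, on chromosome 1, ranged from 42.2 to 50.8 CPM in NPY1R high and from 45.6 to 63.2 CPM in NPY1R low. The NPY1R low libraries 1 to 3 were at 59.2 to 63.2 CPM and replicate 4 was at 45.6 CPM, inside the range of the other group. The log2 change was -0.29 (SE 0.11) and was not called. Without NPY1R low replicate 4 it was -0.35 and was called lower, and with an offset for transcript GC content it was -0.25 and was called lower.

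Of the SoxE genes, SOX9 had 19.5, 16.7, 25.1 and 27.7 CPM in NPY1R high and 25.3, 24.6, 33.0 and 30.2 CPM in NPY1R low. In both groups replicates 3 and 4 were above replicates 1 and 2, by a log2 ratio of 0.54 in NPY1R high and 0.34 in NPY1R low, and the groups overlapped. The log2 change was -0.35 (SE 0.16) and was not called. When the fit held a term that set replicates 1 and 2 apart, the estimate was -0.36 (SE 0.08) and was called lower. The labels give no such split of the replicates, and it matches the pattern seen in these same libraries. SOX8, known from neural crest and glial cells, had 11, 6, 6 and 10 counts in NPY1R high and 9, 8, 5 and 6 in NPY1R low, and did not pass the filter. SOX15, the SoxG gene, had 10.4 to 11.96 CPM in NPY1R high and 6.80 to 12.8 CPM in NPY1R low, with a log2 change of 0.19 (SE 0.17) that was not called. SOX15 (chr17:7588178-7590094) overlaps the end of MPDU1 on chromosome 17. The submitters' notes name RSEM for the counting. They give neither the annotation nor any use of strand, on which the division of such reads depends. MPDU1 had a log2 change of -0.18 (SE 0.12) and was not called (adjusted p 0.42, edgeR's quasi-likelihood test).

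**Figure D2:**
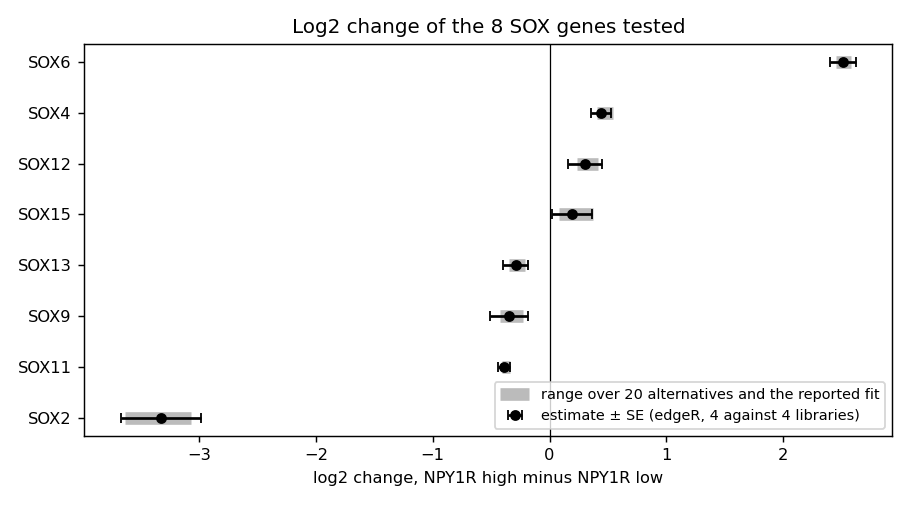
Log2 change (NPY1R high minus NPY1R low, horizontal axis) of the 8 SOX genes tested; points are estimates with SE bars from 4 against 4 libraries, and grey bars span the reported fit and 20 alternatives. SOX2 at -3.32 and SOX6 at 2.51 lie far from 0, and the other 6 lie between -0.39 and 0.44.

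To compare the members with each other, CPM was divided by the length in kilobases of each gene's principal coding transcript. At these lengths SOX4 stood first in both groups, at 57.7 ± 4.77 CPM per kilobase in NPY1R high and 42.4 ± 4.56 in NPY1R low (SD, n = 4 each). These levels were at the 91.7th and 87.7th percentile of the 13179 tested genes with a length. SOX13 (13.0 and 15.9) and SOX11 (10.9 and 14.3) came next, and their library ranges overlapped in NPY1R low but not in NPY1R high. SOX15 (8.10 and 7.09), SOX9 (5.66 and 7.18) and SOX12 (4.96 and 4.01) followed. In NPY1R high the ranges of SOX9 and SOX12 overlapped, and in NPY1R low those of SOX9 and SOX15. The order depends on the transcript length used. GENCODE lists 10 SOX13 transcripts with a median of 756.5 bases, and at the median length of each gene SOX13 stood at 61.7 ± 5.86 and 75.5 ± 10.4 CPM per kilobase in NPY1R high and low (SD, n = 4 each), above the means of SOX4. Each median is over every listed transcript, coding or not, so a short transcript weighs as much in it as the principal one.

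The places of SOX6 and SOX2 in this order were exchanged between the groups. Per length, SOX6 had 1.54 ± 0.071 and SOX2 0.173 ± 0.109 CPM per kilobase in NPY1R high. In NPY1R low, SOX6 had 0.271 ± 0.024 and SOX2 1.66 ± 0.264 (SD, n = 4 each). The ratio of SOX6 to SOX2 was 15.2, 20.6, 7.22 and 5.31 in the NPY1R high libraries and 0.205, 0.145, 0.162 and 0.1498 in the NPY1R low libraries. This ratio had to differ between the groups, as SOX6 was higher and SOX2 lower in NPY1R high with libraries apart. By its values SOX6 was above SOX2 in 4 of 4 NPY1R high libraries and below it in 4 of 4 NPY1R low libraries. This order used the 8865-base SOX6 transcript. GENCODE lists 17 SOX6 transcripts with a median of 709 bases, which would raise the SOX6 level per length to 3.38 in NPY1R low, above SOX2, so the crossing depends on that length while the change in the ratio does not. That median too is over every listed transcript, coding or not. SOX8 and SOX5 had the lowest means in both groups, and the library ranges of SOX8 and SOX2 overlapped in NPY1R high.

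The summed level of the 10 members per length was 102.2 ± 7.52 in NPY1R high and 92.9 ± 4.24 in NPY1R low (SD, n = 4 each), and the libraries overlapped. SOX4 made up 54.3% to 57.6% of this sum in NPY1R high and 42.1% to 51.4% in NPY1R low. SOX11 made up 9.81% to 11.4% and 15.1% to 15.8%. At median transcript lengths SOX4 made up 31.5% to 35.1% and 23.6% to 32.9%, and SOX13 33.8% to 38.8% and 41.4% to 51.2%. The ratio of SOX4 to SOX11 per length was 4.76 to 5.80 in NPY1R high and 2.78 to 3.26 in NPY1R low. The ratio of SOX4 to SOX9 was 9.05 to 12.8 and 5.28 to 6.24. For both ratios the groups did not overlap. For SOX4 to SOX11 this had to be so, as SOX4 was higher and SOX11 lower with libraries apart. It is therefore no further result. How often other pairs of genes separate the groups in this way was not tested.

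**Figure D3:**
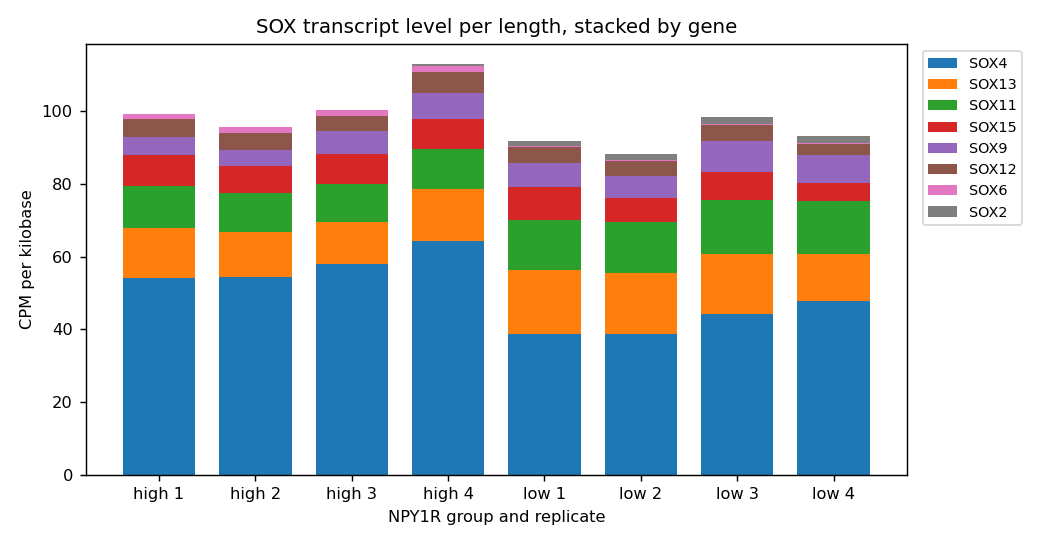
Level per length (CPM per kilobase, vertical axis) of the SOX genes in each library, stacked by gene, with SOX5 and SOX8 left out because they are too low to see. At the principal transcript lengths plotted, SOX4 is the largest part of every bar, 54.3% to 57.6% in NPY1R high and 42.1% to 51.4% in NPY1R low; SOX6 is visible in NPY1R high and SOX2 in NPY1R low.

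The other 9 numbered SOX genes were close to absent. SOX1, SOX3, SOX7, SOX10, SOX14, SOX17, SOX18, SOX21 and SOX30 had 137 counts in all over the 8 libraries and at most 10 in any library, and 0 of the 9 passed the filter. SOX14 and SOX17 were at 0 in every library. SOX10, a marker of basal-like breast and neural crest cells, had 4 counts in all, and SOX30 had 49.

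The nearest genes on each side of the members were taken from RefSeq by position. Only genes with a row in the count table that did not overlap the member were used, so uncounted genes may lie between. Of 20 such neighbours, 11 were tested and 1 was called, as higher, where 13.6% of all genes tested were called. Their median log2 change was -0.06. C11orf58, whose annotated start lies beside the outermost SOX6 start, averaged 245.4 ± 18.0 CPM where NPY1R was high and 242.9 ± 16.6 CPM where it was low (SD, n = 4 each). Its log2 change was 0.01 (SE 0.07, adjusted p 0.931, edgeR) against the 2.51 of SOX6. In GENCODE 29 the first exons of the 2 genes overlap. The neighbours of SOX12 were also not called, NRSN2 at 0.02 (SE 0.17) and NRSN2-AS1 at 0.03 (SE 0.16).

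The neighbour that rose was LINC00673, a long non-coding RNA 276.9 kb from SOX9 (chr17:72403322-72592804). Its counts were 99, 121, 53 and 47 in NPY1R high and 21, 30, 16 and 23 in NPY1R low. It rose from 0.848 ± 0.161 to 3.10 ± 1.11 CPM (SD, n = 4 each), or 1.87 on the log2 scale (SE 0.29, adjusted p 0.00183, edgeR). SOX9-AS1, a non-coding RNA gene that RefSeq places 0.227 kb before SOX9, had 49, 56, 108 and 83 counts in NPY1R high and 108, 133, 105 and 165 in NPY1R low. Like SOX9, it was lower on average in NPY1R high with overlapping libraries (log2 change -0.69, SE 0.31, adjusted p 0.194, edgeR). When replicates 1 and 2 were set against 3 and 4 by a term in the edgeR fit, its estimate was -0.76 with an adjusted p of 0.0182. That split is not in the labels.

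**Figure D4:**
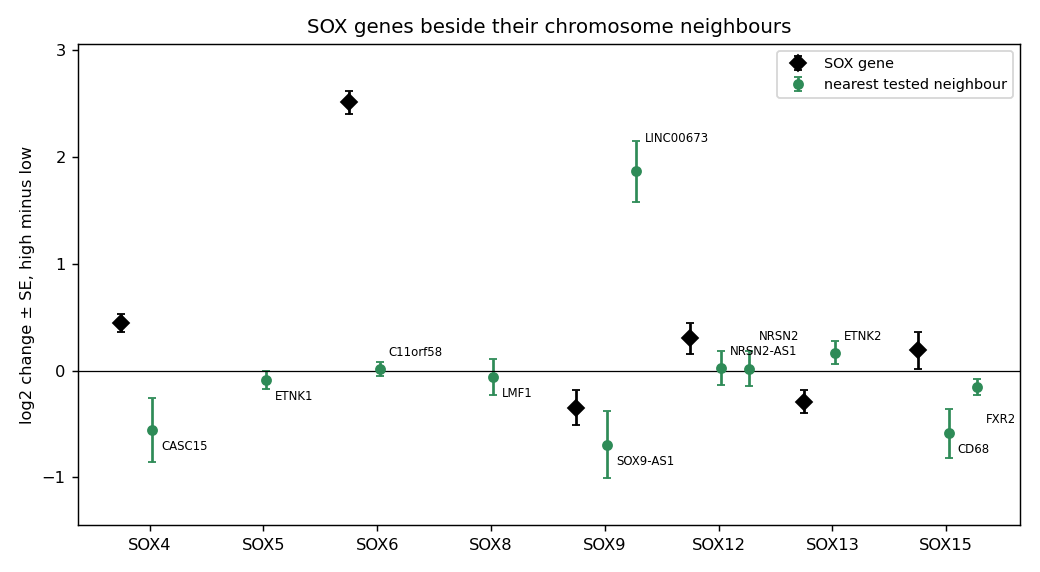
Log2 change (NPY1R high minus NPY1R low, vertical axis, with SE bars) of each tested SOX gene (black diamonds) and of its nearest tested chromosome neighbours (green circles), grouped by SOX gene; SOX5 and SOX8 were not tested themselves, and SOX2 and SOX11 had no tested neighbour and are not drawn. C11orf58 beside SOX6 lies at 0.01 where SOX6 lies at 2.51, and LINC00673 near SOX9 lies at 1.87.

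Genes known to act with SOX proteins or under them were counted by list. Over all genes tested 13.6% were called, 5.78% higher and 7.81% lower. Of 20 partner proteins (POU, GLI and RUNX factors, CTBP and other cofactors), 14 were tested, with a median log2 change of -0.09, and 1 was called, as lower. It was POU2F1, an octamer-binding factor, which fell from 70.5 ± 7.24 to 49.97 ± 4.08 CPM (SD, n = 4 each), or on the log2 scale -0.50 (SE 0.09, adjusted p 0.00427, edgeR). Of the SOX9, SOX5 and SOX6 targets of cartilage, 4 of 14 were tested and COL2A1, the cartilage collagen, was called higher. It had 28, 35, 39 and 30 counts in NPY1R high against 18, 22, 17 and 20, a log2 change of 0.84 (SE 0.22, adjusted p 0.0329, edgeR). Leaving out any of the 8 libraries but 2 ended this call, and so did the GC offset; it held without NPY1R high replicate 1 and without NPY1R low replicate 4. COL9A1, COL11A1 and HAPLN1 were at 0.

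Of 10 neuronal and other genes linked to SOX4 and SOX11, 8 were tested, with a median log2 change of 0.04, and 1 was called. That is 12.5% of those tested, beside 13.6% of all genes tested. DCX, the doublecortin of migrating neurons, had 254, 212, 347 and 255 counts in NPY1R high against 36, 25, 25 and 35 in NPY1R low. It rose from 1.151 ± 0.208 to 10.8 ± 2.97 CPM (SD, n = 4 each), or on the log2 scale 3.22 (SE 0.23, adjusted p 2.11e-05, edgeR). The neuronal tubulin TUBB3 had a log2 change of -0.04 (SE 0.24) and the polycomb methyltransferase EZH2 of -0.15 (SE 0.06), neither called.

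Of 17 pluripotency and neural progenitor genes linked to SOX2, 5 were tested and 8 were at 0 in every library. The median log2 change of the 5 was -0.47, beside -0.03 over all genes tested. All of them but KLF4 averaged under 1 CPM in both groups. NES (0.38, SE 0.30) and SALL4 (-0.47, SE 0.24) were not called and went in opposite directions. PROM1, a surface protein of progenitor cells, had 3, 14, 10 and 5 counts in NPY1R high and 18, 26, 22 and 24 in NPY1R low, a log2 change of -1.43 (SE 0.39, adjusted p 0.0365, edgeR). KLF4 was at 13.2 ± 0.375 and 16.5 ± 1.45 CPM (SD, n = 4 each), or on the log2 scale -0.32 (SE 0.09, adjusted p 0.0388, edgeR). The KLF4 call was lost in all 8 fits that left out a library, and that of PROM1 in 6, all but those without NPY1R high replicate 2 and NPY1R low replicate 1. POU5F1, the partner of SOX2 in pluripotent cells, had 3 to 18 counts and was not called (log2 -0.53, SE 0.37), and NANOG had 2 counts in all.

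Mammary progenitor genes changed in both directions. Of 13, 8 were tested, 3 were higher and 2 lower, with a median log2 change of 0.05. Over all genes tested 5.78% were called higher and 7.81% lower. KRT15, a keratin of progenitor cells, rose from 42.2 ± 5.52 to 93.1 ± 3.24 CPM (SD, n = 4 each), or on the log2 scale 1.14 (SE 0.09, adjusted p 3.26e-05, edgeR). KIT, the receptor of luminal progenitors, had 19, 36, 22 and 11 counts in NPY1R high against 14, 5, 6 and 5, a log2 change of 1.59 (SE 0.39, adjusted p 0.0238, edgeR). That call was lost without NPY1R high replicate 2 (1.28), without NPY1R low replicate 2 (1.41) and without NPY1R low replicate 3 (1.57). TSPAN8, a tetraspanin, fell by 2.60 on the log2 scale (SE 0.31, adjusted p 0.000412, edgeR), from 2.54 ± 0.821 to 0.408 ± 0.138 CPM. ALDH1A3, an aldehyde dehydrogenase, fell by 0.90 (SE 0.12, adjusted p 0.000833, edgeR), from 5.62 ± 0.319 to 3.03 ± 0.243 CPM (SD, n = 4 each). ELF5, CD24 and CD44 were not called.

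Of the 20 other HMG-box proteins, 17 were tested and 5 (29.4%) were called, all lower. Over all genes tested 13.6% were called, and 7.81% were called lower. TOX3, an HMG-box factor of luminal breast cells, fell from 66.0 ± 6.55 to 36.9 ± 1.08 CPM (SD, n = 4 each), or on the log2 scale -0.84 (SE 0.08, adjusted p 8.11e-05, edgeR). The chromatin proteins HMGB1, HMGB2 and HMGB3 had log2 changes of -0.32 (SE 0.08), -0.42 (SE 0.07) and -0.34 (SE 0.07). HMGB1 lost its call in 6 of the 8 fits that left out a library, under upper-quartile factors, library totals and another TMM reference library, and HMGB3 without NPY1R high replicate 4. HMGB1 and HMGB2 have processed copies in the genome, so their counts are uncertain. The count of 5 was 2 without NPY1R high replicate 4, 3 without NPY1R high replicates 2 or 3 or NPY1R low replicate 4, and 3 under upper-quartile factors and library totals. None of the 4 TCF and LEF factors, the HMG-box effectors of Wnt signalling, was called, with log2 changes from -0.41 (LEF1) to 0.37 (TCF7). In edgeR 1 of the 4 (LEF1) had an unadjusted p under 0.05, and DESeq2 and limma-voom called 0.

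**Figure D5:**
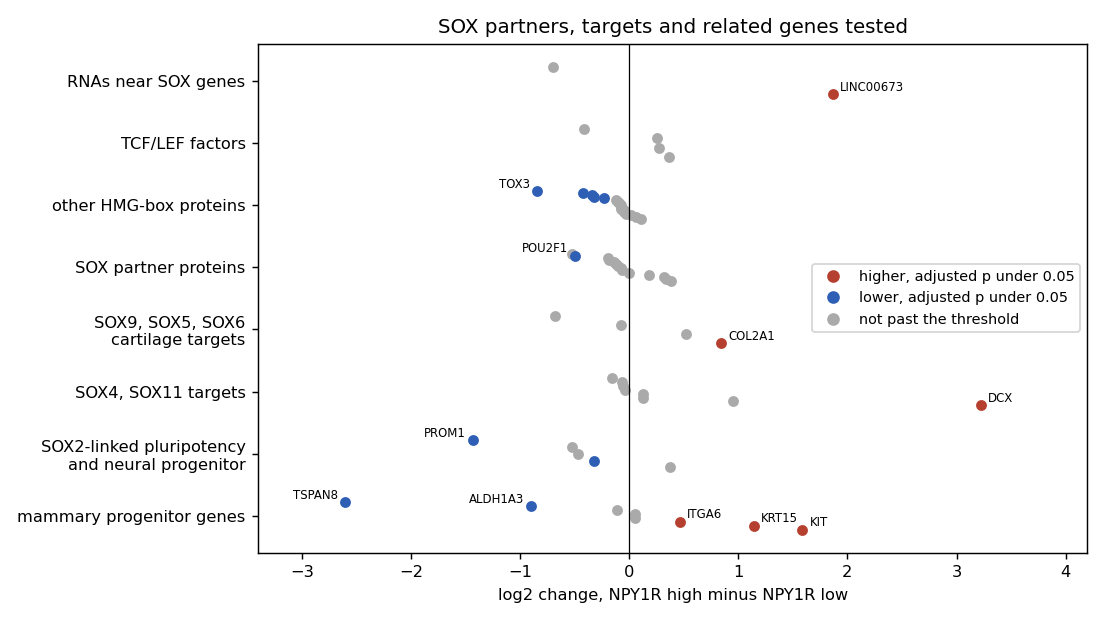
Log2 change (NPY1R high minus NPY1R low, horizontal axis) of every tested gene in 8 lists related to SOX factors; red and blue points passed an adjusted p of 0.05 and grey points did not, and called genes beyond 0.45 in size are named. Most points lie near 0, with DCX at 3.22 and TSPAN8 at -2.60 farthest out.

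The genes whose levels over the 8 libraries were most like those of SOX6, by Pearson's r of log2 CPM among 10435 genes with a mean of at least 5 CPM, were GFRA1 (r 0.998), SLC22A5 (0.997) and CALCR (0.996). For SOX4 they were MBP (0.985), TRIM13 (0.985) and SATB1 (0.983), and for SOX11 GUCY1A3 (0.993), DHTKD1 (0.992) and GAS2L3 (0.991). The 8 libraries form 2 groups, and the difference between those groups sets most of each r. GFRA1, a coreceptor of the GDNF family, had a log2 change of 3.77 (SE 0.17), and CALCR, the calcitonin receptor, of 2.95 (SE 0.13). SLC22A5, a carnitine transporter, had 0.73 (SE 0.06).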

How the data were processed

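The authors deposited expected counts per gene symbol for 8 libraries, and per the labels' protocols each library took 200 ng of RNA through a stranded kit. STAR 2.5.2, RSEM 1.3.0 and the build hg38 are named in the submitters' processing notes; the gene annotation and any use of strand in counting are not given in the sources used here. The 8 single tables held the same values as the series table, with 0 differing, and 0 columns were of unmatched samples. The test had been planned for whole counts, so expected counts were rounded.

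Genes were filtered with filterByExpr (minimum count 10), which kept 14008, and scaled with TMM factors. The main test was edgeR's quasi-likelihood test of the 2 groups of 4 with no covariate, adjusted by Benjamini-Hochberg over all genes tested (threshold 0.05). The software was edgeR 4.0.16 in R 4.3.3, with DESeq2 1.42.0 and limma 3.58.1 for alternatives. The labels do not say that replicates came from separate cultures, so p-values measure the spread between these libraries, and depth limits cover counting error only. Log2 CPM used a prior count of 2. The procedure was also run on simulated counts. Those held no pattern by replicate number or GC content, so that run does not bear on such patterns in these libraries.

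Lengths and GC content came from GENCODE release 29 (the principal coding transcript; 94.1% of tested genes), and positions and promoters from RefSeq (GRCh38.p14). The GC offset removed each library's spline (5 degrees of freedom) of log2 CPM on GC. A comparison of SOX protein sequences was not run. Members and lists were chosen with earlier results of these data known. Named were all members, other SOX genes with a count, called genes of each list (at most the 4 largest changes), called neighbours, and the 3 genes most correlated with each of the 3 members of largest change at a mean of at least 5 CPM. Uncalled genes and genes at 0 outside the members were chosen after their values were seen. Alternatives were other scalings, filters, DESeq2, limma-voom, covariates, leaving out each library, other transcript lengths and a shorter promoter window. The immune marker list is not reported here.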

Additional observations from a re-analysis of the deposited data

How the results depend on the processing

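Of 160 values of the 8 tested SOX genes under 20 alternatives, 153 stayed on their side of the threshold in the same direction, 7 gained a call and 0 reversed. SOX2, SOX4, SOX6 and SOX11 were called in all 21 fits, with log2 changes of -3.63 to -3.07, 0.40 to 0.54, 2.45 to 2.58 and -0.41 to -0.34. SOX15 was called in 0. Besides the gains named with their results, SOX9 was called with the replicate block (-0.36) and with the block and GC offset (-0.35), as were SOX12 (0.33) and SOX13 (-0.25) with the latter. With the replicate block and GC offset 4 members were lower in place of 2. Over the fits that left out a library, 2 members were higher and 2 to 3 lower.

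Over all genes, 810 were higher and 1094 lower. The replicate block gave 805 and 1028; by number alone same-numbered libraries deviated together at correlations of 0.339, 0.157, 0.0907 and 0.0178 across genes, not all above 0.1, and 2 of 8 libraries correlated best with their own number. The replicate block and GC offset gave 1343 and 2005, the GC offset 1789 lower, and a term setting replicates 1 and 2 apart gave 1681 lower. Leaving out a library gave 624 to 1068 higher and 625 to 1064 lower, with 625 without NPY1R high replicate 4, 678 without NPY1R low replicate 1 and 710 without NPY1R high replicate 3. Median-of-ratios factors gave 898 higher and 905 lower, library totals 949 and 807, and upper-quartile factors 1009 and 783.

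Calls in the TCF and LEF list stayed at 0 in all 21 fits, and the 5 in the mammary progenitor list ran from 4 to 6. RNAs near SOX genes had 2 calls in place of 1 with the replicate block, with the block and GC offset and with the term for replicates. Neighbours had 2, 3 and 2 under these fits and 2 with the GC offset (1 otherwise, 1 to 1 when a library was left out). HMG-box proteins had 3 under upper-quartile factors and library totals and 2 to 5 without a library. Partners had 2 with the block and GC offset and with the term (1 to 2 without a library). Cartilage targets had 0 at 1 CPM in 4 libraries, which left COL2A1 untested, and 0 with the GC offset (0 to 1 without a library). SOX4 and SOX11 targets had 2 with the GC offset, with or without the block (1 to 2 without a library). SOX2-linked genes had 1 in place of 2 under median-of-ratios factors, upper-quartile factors, library totals, another TMM reference, the replicate block and the GC offset, 0 with no filter and 0 at 1 CPM (0 to 1 without a library). In windows of 150 bases around the start, ACAAAG was in 8.19% and ACAATG in 5.84% of promoters. The causes were not tested. Counts below 20 in a library limit the precision of SOX2 in NPY1R high and of SOX5 and SOX8 in both groups.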
